A study of Mus musculus with 9 samples.

Results

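The mitochondrial respiratory chain subunits examined here are 78 genes whose symbols mark them as parts of complexes I to V. They were picked by a pattern of symbols, with earlier results of these data known, from probe sets with a single gene symbol. Where a gene had several probe sets, the one with the highest mean over 9 arrays was kept. Among 22180 genes measured, 33 belonged to complex I (Nduf genes), 4 to complex II (Sdh genes), 8 to complex III (Uqcr genes), 15 to complex IV (Cox genes) and 18 to complex V, the ATP synthase (Atp5 genes). Of the 78, 76 are protein-coding and 2, Atp5c1-ps and Uqcrh-ps1, are pseudogenes. Complexes were assigned by symbol in all counts and medians by complex. Cox7a2l, not a structural subunit by current naming, is thus in complex IV. Ndufa4, now counted in complex IV, and Ndufa4l2 are in complex I.

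Liver RNA came from 9 female mice, 3 in each group, with 1 Affymetrix whole-transcript array per mouse. Control mice were SMRT and NCoR fl/fl, with both genes floxed and not deleted. The second group was SMRT KO, and the third, called double KO here, was SMRT and NCoR KO, each with the deletion in the liver. All were euthyroid, 7 to 9 weeks old, on standard chow and of mixed 129SV/B6 background. The labels name neither the Cre driver nor the NCoR allele of the SMRT KO mice, no group lacked NCoR alone, and the genotypes were not checked on these arrays. All 7 hepatocyte markers examined were expressed in all groups, the lowest being Ass1, with group means of 8.02 in control, 8.04 in SMRT KO and 7.43 in double KO livers.

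The respiratory chain sits in the inner mitochondrial membrane. Complexes I and II pass electrons from NADH and succinate to ubiquinone, complex III passes them to cytochrome c, and complex IV to oxygen. Complexes I, III and IV pump protons, and complex V uses the proton gradient to make ATP. Most subunits are encoded in the nucleus, the genes measured here, and a few in mitochondrial DNA, which were not analysed here. Thyroid hormone is a known stimulus of mitochondrial respiration in the liver, and SMRT and NCoR are corepressors of the thyroid hormone receptors.

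No subunit gene passed the test in any comparison, but in double KO livers most of them lay slightly higher than in the other livers. In double KO against control livers, 67 of 78 genes had a log2 fold change above 0, with a median of 0.0996, or 7.15% higher. The median over all 22180 genes was 0.00359, and 51.3% of them were above 0. Against SMRT KO livers, 65 of 78 were above 0 in double KO livers, with a median of 0.0945 (all genes: 0.00166, 50.6% above 0). In SMRT KO against control livers, 32 of 78 were above 0, with a median of -0.0128 (all genes: 0.00087, 50.4% above 0). With each array centred on its median over all genes, the numbers above 0 became 61, 66 and 22 of 78 in the same order, and the median of all genes became -0.0186, 0.00537 and -0.0251. After cyclic loess they were 67, 64 and 39.

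Tested with limma over all genes (Benjamini-Hochberg adjustment), 0 of 78 subunit genes were called at an adjusted p of 0.05 in SMRT KO against control, where 0.00451% of all genes were called. The count was also 0 of 78 in double KO against control (0.843% of all genes) and 0 of 78 in double KO against SMRT KO (1.19%). At an unadjusted p under 0.05, limma counted 1 subunit gene in SMRT KO against control, Atp5l, which was lower (0 higher), beside 3.34% of all genes lower and 2.66% higher, 6.0% together. It counted 9 in double KO against control, all higher. These are 11.5% of the subunit genes, beside 5.34% of all genes higher and 5.43% lower, 10.8% together. In double KO against SMRT KO it counted 16 higher and 1 lower (Cox6a2). The 16 are 20.5% of the subunit genes, beside 5.66% of all genes higher and 4.81% lower, 10.5% together. The comparisons share mice: SMRT KO and double KO livers were set against the same controls, and the double KO livers enter both of the last comparisons, so they are not independent of each other.

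The differences were small, and a 1.5-fold bound held for most genes. The 95% interval of the log2 fold change stayed inside a 1.5-fold change in either direction for 74 of 78 genes in SMRT KO against control, 72 in double KO against control and 71 in double KO against SMRT KO. For complex I this held for 33 of 33 genes in each of the 3 comparisons. The bound is a wide one. In double KO against control the median half-width of the interval was 0.164, beside a median log2 fold change of 0.0996. The genes whose interval reached 1.5-fold in double KO against control livers were Atp5c1-ps, Atp5k, Cox6b2, Cox7c, Cox8b and Sdhd. In bulk liver, a different share of mitochondria-rich cells and a different amount of RNA per cell cannot be told apart.

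**Figure D1:**
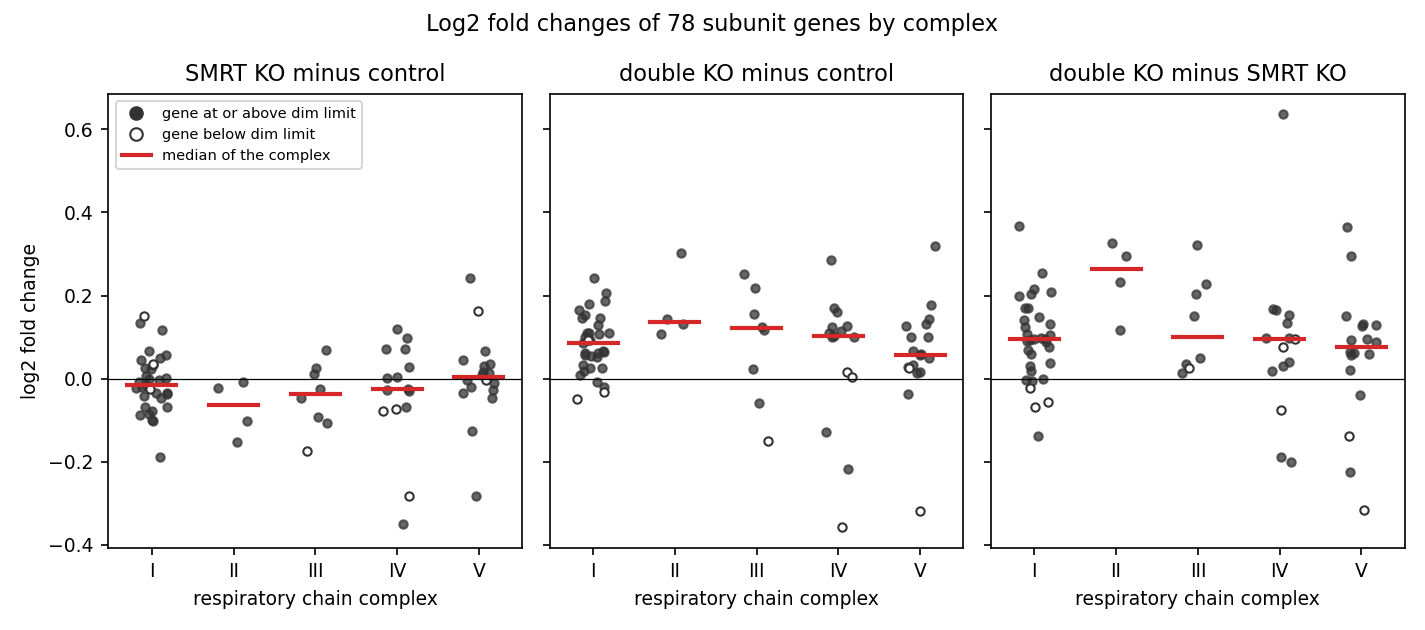
Log2 fold change of each of the 78 subunit genes (vertical axis) by complex (horizontal axis) in the 3 comparisons. Open circles are the 9 genes below the dim limit of 5.96, the level under which 95% of olfactory and vomeronasal receptor genes lie, and red lines are medians of each complex. In both comparisons that involve double KO livers, the medians of all 5 complexes lie above 0, between 0.0582 and 0.265.

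Each liver was also summarised by how far its subunit genes lay from their own means over the 9 mice. For all 78 genes the median deviation was -0.00847, -0.0428 and -0.0125 in control replicates 1 to 3 and -0.0672, -0.0346 and -0.00501 in SMRT KO replicates 1 to 3. It was 0.0756, 0.0470 and 0.0659 in double KO replicates 1 to 3. The 3 double KO livers lay above the other 6, and the control and SMRT KO livers overlapped. Over all 5415 genes with a mean of at least 8, the double KO livers lay between -0.00726 and 0.0099, inside the range of the controls (-0.0261 to 0.0200). The double KO livers lay above the other 6 in each complex too. In complex II this is a median of 4 genes, of which 0 had all 3 double KO values above the other 6. The separation was narrowest in complex IV, where double KO replicate 3 was at 0.00757 and control replicate 1 at -0.00684.

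**Figure D2:**
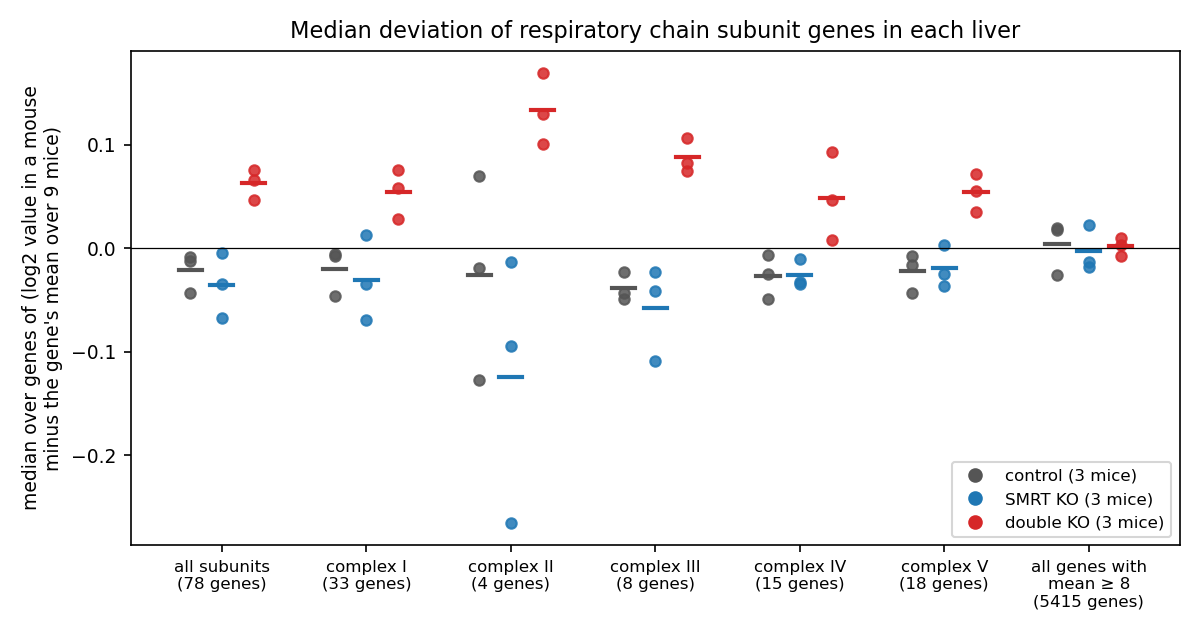
Median over genes of the deviation of the log2 value in a mouse from the gene's mean over 9 mice (vertical axis), for all subunits, each complex and all genes with a mean of at least 8. Points are mice and bars are means of 3 mice. For all subunits the double KO livers lie between 0.0470 and 0.0756 and the other 6 livers between -0.0672 and -0.00501.

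The share of subunit genes above 0 in double KO livers was read by level. Among the 35 subunit genes with a mean log2 value of 10 or above, 34 were above 0 in double KO against control, with a median of 0.107, while 48.1% of the 1313 genes in that range were above 0 (median -0.00393). Among the 23 with a mean from 8 to 10, 20 were above 0 (median 0.108, all 4102 genes: -0.00235). Among the 11 with a mean from 6 to 8, 9 were above 0, with a median of 0.0609 (all genes in that range: 0.0151, 56.0% above 0). Among the 9 below 6, 4 were above 0, with a median of -0.0319. Those 9 genes, Atp5c1-ps, Atp5j2, Cox7b2, Cox8b, Cox8c, Ndufa4l2, Ndufb11, Ndufs5 and Uqcrh-ps1, also lay below the dim limit of 5.96. That limit is the level under which 95% of 1394 olfactory and vomeronasal receptor genes lie, and these 9 are not shown to be above background.

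All 3 double KO values of 16 subunit genes lay above those of the other 6 mice, or 20.5% of the 78 beside 4.01% of all genes. They were 8 of complex I (Ndufa10, Ndufa5, Ndufa9, Ndufb8, Ndufs1, Ndufs7, Ndufv1 and Ndufv2), 0 of complex II, 3 of complex III (Uqcr11, Uqcrc1 and Uqcrc2), 4 of complex IV (Cox5a, Cox6b1, Cox7b and Cox8a) and Atp5a1 of complex V. Against controls alone, 24 subunit genes (30.8%) had 3 double KO values above all 3 control values (7.72% of all genes) and 1, Atp5c1-ps, had them below (7.25%). Against SMRT KO livers the numbers were 21 above (7.54% of all genes) and 0 below (6.21%). In SMRT KO against control livers they were 4 above (3.8%), namely Atp5mpl, Cox5b, Cox6a1 and Uqcrq, and 0 below (4.36%). Shares over all genes include many dim genes. Among the 13152 genes at or above the dim limit, 10.1% lay above in double KO against control and 9.85% against SMRT KO. Of the 69 subunit genes at or above it, 34.8% and 30.4% did, and 0 lay below in either. At an unadjusted p under 0.05, limma counted 6.92% and 7.62% of the 13152 as higher, and 13.0% and 23.2% of the 69.

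The promoters of several subunit genes carry motifs of known nuclear respiratory factors. The windows come from RefSeq (GRCm38.p6), run from 250 bases before to 50 after a gene's start, and were found for 64 of the 78 genes (69 windows). All motifs were read on both strands. The NRF1 motif, GCGCA and GCGC with any base between them, was found in 23.2% of the 69 windows, beside 4.6% of all 32851 windows and 6.38% of windows of protein-coding genes. The YY1 motif AAGATGGC was found in 13.0% (all windows: 2.75%, protein-coding genes: 3.05%). The ETS motif ACTTCCGG, bound by GABP, was found in 7.25% (all windows: 3.89%, protein-coding genes: 5.15%). A form of thyroid hormone response element is a pair of exact AGGTCA half-sites in the same direction with 4 bases between them. It was found in 0 of the 69 windows, 0 of 21262 windows of protein-coding genes and 5 of all 32851. Its absence is thus not particular to the subunit genes, and other forms of the element were not searched. TCAAGGTCA, which holds the AGGTCA half-site and is bound by estrogen-related receptors, was found in 2 of the 69 (0.423% of all, 0.334% of protein-coding genes). These matches are a description of letters and were not tested against the expression values. At 1 window the NRF1 and ETS motifs were both found.

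Shown here are the 150 bases before the start of 4 subunit genes that lay high in double KO livers and hold an NRF1 or ETS match there: Sdhd, Atp5k and Uqcr11 had the highest log2 fold change of complexes II, V and III against control, and all 3 double KO values of Atp5g2 lay above the controls. The highest genes of complexes I and IV against control, Ndufs7 and Cox6b2, had 0 NRF1 and 0 ETS matches in their windows. They are not shown. Cox6a1 met the same rule as Atp5g2, with an NRF1 match beginning 117 bases before the start, and is not shown either. Sdha had 3 NRF1 matches and a log2 fold change of 0.11 in double KO against control. The 4 genes were chosen for both level and motif, so showing them does not link the 2. Capitals mark the NRF1 motif in Sdhd, Atp5k and Atp5g2, beginning 79, 50 and 42 bases before the start, and the ETS motif in Uqcr11, beginning 66 bases before it. All 4 are on the minus strand of GRCm38.p6, at chr9:50603850-50603999 (Sdhd), chr5:108434400-108434549 (Atp5k), chr15:102671048-102671197 (Atp5g2) and chr10:80406822-80406971 (Uqcr11).
Sdhd: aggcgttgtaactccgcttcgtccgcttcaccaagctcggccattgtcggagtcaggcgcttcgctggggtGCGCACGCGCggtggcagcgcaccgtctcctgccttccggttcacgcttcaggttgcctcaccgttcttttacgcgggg
Atp5k: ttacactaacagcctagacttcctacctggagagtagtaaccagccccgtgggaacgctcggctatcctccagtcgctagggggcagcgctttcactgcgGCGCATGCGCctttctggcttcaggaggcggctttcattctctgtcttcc
Atp5g2: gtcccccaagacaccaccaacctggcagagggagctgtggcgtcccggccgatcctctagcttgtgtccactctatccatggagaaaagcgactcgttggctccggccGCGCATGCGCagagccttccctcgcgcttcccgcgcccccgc
Uqcr11: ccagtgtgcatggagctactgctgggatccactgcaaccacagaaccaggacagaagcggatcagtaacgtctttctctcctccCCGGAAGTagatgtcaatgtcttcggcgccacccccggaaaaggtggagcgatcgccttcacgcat

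Complex I takes electrons from NADH through a hydrophilic arm of flavin and iron-sulfur subunits and hands them to ubiquinone. Its 33 genes had a median log2 fold change of 0.0858 in double KO against control (29 above 0), 0.0944 against SMRT KO (27 above 0) and -0.0162 in SMRT KO against control (13 above 0). Of 6 core subunits measured, 5 were above 0 in double KO against control, with a median of 0.104.

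The lowest p of the chain against control belonged to Ndufs7, the core iron-sulfur subunit next to the ubiquinone site. Its log2 values were 11.49, 11.60 and 11.56 in control replicates 1 to 3, 11.57, 11.61 and 11.60 in SMRT KO, and 11.73, 11.85 and 11.81 in double KO livers. The double KO livers were all above the other 6, and control and SMRT KO livers overlapped. The log2 fold change in double KO against control was 0.24 (standard error 0.0614, 95% interval 0.10 to 0.38), or 18.3% higher, and did not pass (limma adjusted p = 0.146).

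Ndufs1, the largest iron-sulfur subunit, read 10.25, 10.15 and 10.27 in control, 10.18, 10.15 and 10.13 in SMRT KO and 10.41, 10.40 and 10.42 in double KO livers. The double KO values were the highest and the closest together. Its log2 fold change in double KO against SMRT KO was 0.25 (standard error 0.0588, limma adjusted p = 0.0953), the lowest adjusted p of any subunit gene in these comparisons, and against control it was 0.19 (adjusted p = 0.255). Ndufa10, an accessory subunit of the membrane arm, had 10.85, 10.76 and 10.79 in control, 10.80, 10.82 and 10.79 in SMRT KO and 10.91, 11.06 and 11.04 in double KO livers. All double KO values exceeded the rest, with log2 fold changes of 0.21 against control (adjusted p = 0.24) and 0.20 against SMRT KO (0.237).

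The other core subunits had smaller log2 fold changes in double KO against control. Ndufv1, which binds the flavin that accepts electrons from NADH, had a log2 fold change of 0.11 in double KO against control and 0.21 against SMRT KO (limma adjusted p = 0.664 and 0.308). Ndufv2 had 0.0991 and 0.11, and Ndufs8 0.0320 and 0.0682. Ndufs3, a core subunit of the ubiquinone-binding part, lay at -0.00867 and -0.00564, and its double KO values (8.24, 8.30 and 8.30) fell inside the control range of 8.21 to 8.36. The accessory subunit Ndufa3 had -0.137 in double KO against SMRT KO, the lowest of the complex, and Ndufb11 -0.0479 against control, the lowest there. Ndufs5 had the highest log2 fold change of the complex in SMRT KO against control (0.15, adjusted p = 0.906) at a level below the dim limit.

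Ndufb8, an accessory subunit of the membrane arm, differed within the SMRT KO group. It read 7.27, 7.26 and 7.31 in control, 7.02, 6.94 and 7.31 in SMRT KO and 7.49, 7.51 and 7.38 in double KO livers. SMRT KO replicates 1 and 2 lay below every other mouse and replicate 3 lay level with the highest control. Its log2 fold change in double KO against SMRT KO was 0.37 (standard error 0.0945, limma adjusted p = 0.137), the highest of the complex, and without SMRT KO replicate 3 it was 0.48 and passed (adjusted p = 0.0248). In SMRT KO against control it was -0.19 (adjusted p = 0.858), the lowest of complex I.

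**Figure D3:**
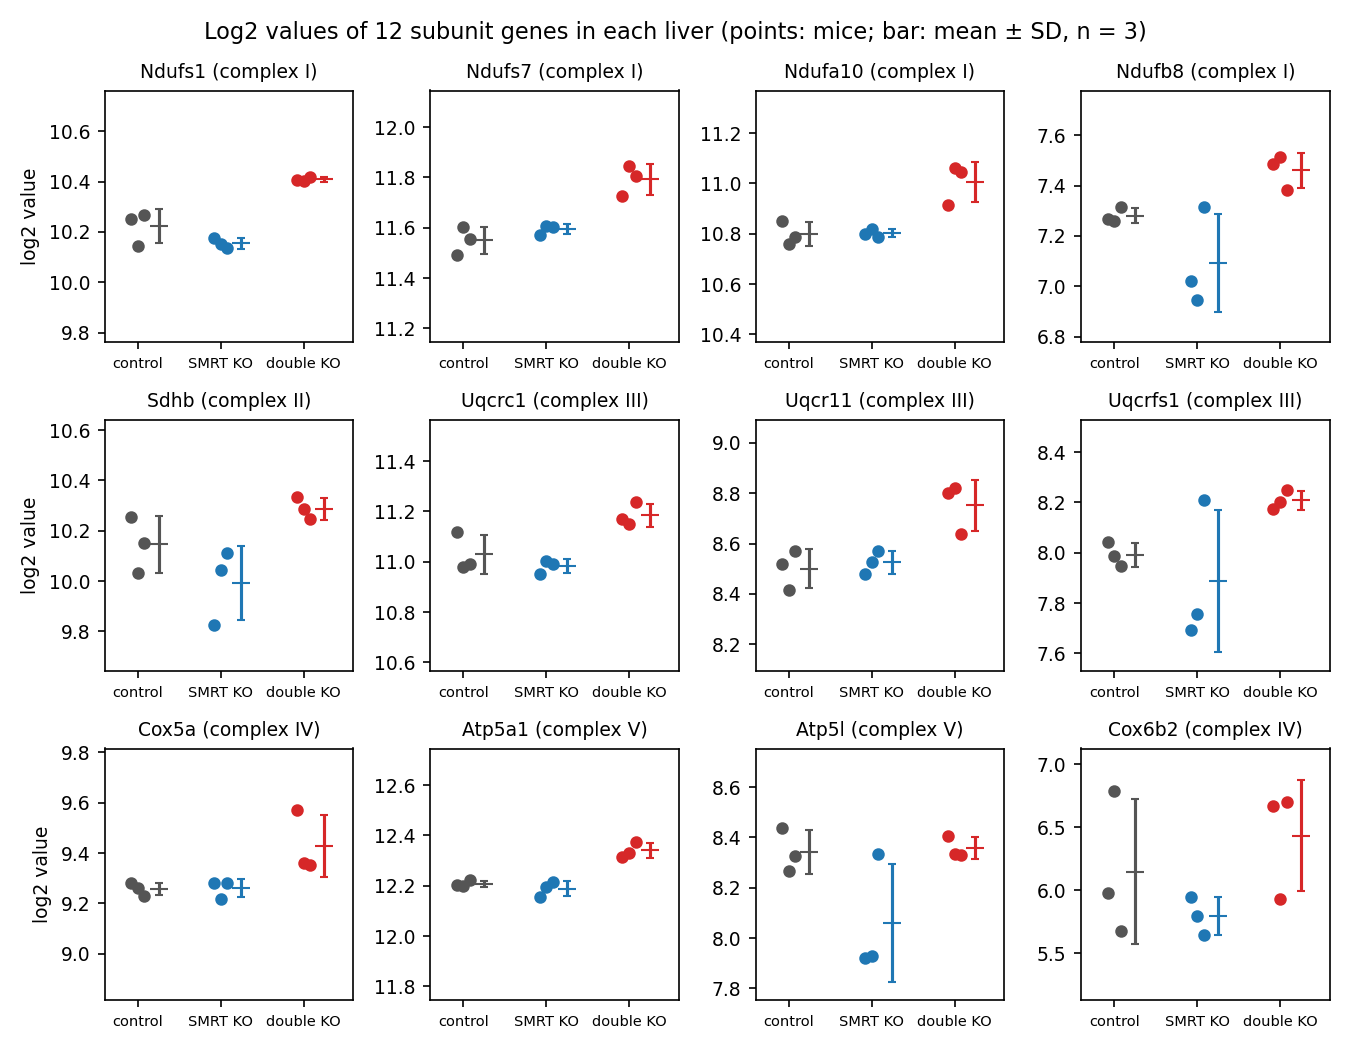
Log2 values of 12 subunit genes in each of 9 livers. Points are mice and bars the mean ± SD of 3 mice. Each panel spans 1 log2 unit, except Cox6b2, which spans 2, and levels are not comparable between panels. Ndufs7, Ndufs1, Ndufa10, Ndufb8, Uqcrc1, Uqcr11, Cox5a and Atp5a1 have all 3 double KO values above the other 6. Ndufb8, Uqcrfs1 and Atp5l are low in SMRT KO replicates 1 and 2 and not in replicate 3.

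Complex II, succinate dehydrogenase, links the chain to the tricarboxylic acid cycle and is encoded by 4 nuclear genes. All 4 were above 0 in double KO against control (median 0.14) and against SMRT KO (median 0.26), and all 4 were below 0 in SMRT KO against control (median -0.0624, or -0.0168 without SMRT KO replicate 1, -0.186 without SMRT KO replicate 3 and -0.147 without control replicate 2). Sdhb, the iron-sulfur subunit, read 10.26, 10.03 and 10.15 in control, 9.83, 10.04 and 10.11 in SMRT KO and 10.33, 10.29 and 10.25 in double KO livers. The double KO values were all above those of SMRT KO mice but overlapped control replicate 1. Its log2 fold change in double KO against SMRT KO was 0.30 (standard error 0.0893, limma adjusted p = 0.225).

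The other succinate dehydrogenase genes spread more or differed less. Sdhd, a membrane anchor, read 10.57, 10.20 and 10.46 in control, 9.95, 10.41 and 10.79 in SMRT KO and 10.68, 10.75 and 10.71 in double KO livers. The SMRT KO mice alone spanned more than both other groups together, and its log2 fold change of 0.30 in double KO against control had an interval of -0.11 to 0.71 (limma adjusted p = 0.623). Sdha, the flavin subunit that oxidises succinate, had 0.11 against control and 0.12 against SMRT KO (adjusted p = 0.61 and 0.596), and Sdhc, the other anchor, 0.13 and 0.23 (0.728 and 0.471). The complex II median in double KO against SMRT KO was 0.146 without SMRT KO replicate 1, the mouse with the lowest median deviation for these genes (-0.265).

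Complex III passes electrons from ubiquinol to cytochrome c. Its 8 genes had a median of 0.12 in double KO against control (6 above 0), 0.0996 against SMRT KO (8 above 0) and -0.0362 in SMRT KO against control (3 above 0). Uqcr11, a small accessory subunit, read 8.52, 8.41 and 8.57 in control, 8.48, 8.53 and 8.57 in SMRT KO and 8.80, 8.82 and 8.64 in double KO livers. The double KO livers were above the other 6, with a log2 fold change of 0.25 against control (standard error 0.0734, 19.1% higher, limma adjusted p = 0.217).

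The structural core and catalytic subunits of complex III lay in the same direction in double KO livers. Uqcrc1, a core protein, read 11.12, 10.98 and 10.99 in control, 10.95, 11.00 and 10.99 in SMRT KO and 11.17, 11.15 and 11.24 in double KO livers (log2 fold change 0.16 against control and 0.20 against SMRT KO, limma adjusted p = 0.408 and 0.241). Its partner Uqcrc2 had 0.12 and 0.15 (adjusted p = 0.48 and 0.381). Uqcrfs1, the Rieske iron-sulfur protein, read 8.04, 7.99 and 7.95 in control, 7.69, 7.76 and 8.21 in SMRT KO and 8.18, 8.20 and 8.25 in double KO livers. As for Ndufb8, SMRT KO replicates 1 and 2 lay below the controls and replicate 3 among the double KO livers. Its log2 fold change of 0.32 in double KO against SMRT KO had an adjusted p of 0.372, and 0.48 with 0.0204 without SMRT KO replicate 3. Uqcrb (0.0242 against control) and Uqcrh (-0.0575), both small subunits, overlapped between the groups. Uqcrq, which stabilises cytochrome b, had the highest log2 fold change of complex III in SMRT KO against control (0.0685), and the dim pseudogene Uqcrh-ps1 the lowest (-0.17).

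Complex IV, cytochrome c oxidase, reduces oxygen. Its 15 genes had a median of 0.10 in double KO against control (12 above 0), 0.0953 against SMRT KO (12 above 0) and -0.0250 in SMRT KO against control (7 above 0). Cox5a, a subunit on the matrix side, read 9.28, 9.26 and 9.23 in control, 9.28, 9.22 and 9.28 in SMRT KO and 9.57, 9.36 and 9.35 in double KO livers. The double KO values were above the other 6, control and SMRT KO values overlapped, and the log2 fold change against control was 0.17 (standard error 0.0721, limma adjusted p = 0.435). Cox5b lay at 0.16 in double KO and 0.12 in SMRT KO against control, where it was the highest of the complex, and all 6 knockout values exceeded the controls (adjusted p = 0.475 and 0.906).

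Several complex IV subunits have a common form and a form typical of another tissue, and both kinds were measured. The common forms Cox6a1, Cox6b1, Cox7a2, Cox7b and Cox8a had log2 fold changes of 0.10, 0.11, 0.12, 0.10 and 0.13 in double KO against control. With Ndufa4 (0.17), which is named after complex I and now counted in complex IV, all 6 common forms were above 0, with a median of 0.12. The 7 tissue or hypoxia forms had a median of 0.0034, with 4 above 0, and 4 of the 7 (Cox7b2, Cox8b, Cox8c and Ndufa4l2) lay below the dim limit. Among the other 3, the heart and muscle form Cox6a2 had -0.13 against control and -0.20 against SMRT KO, the lowest of the complex there, and the muscle form Cox7a1 had 0.10 and 0.17. None of these passed (limma adjusted p from 0.425 to 0.995 over the 13 genes in double KO against control). The difference between the 2 kinds of form was not tested.

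The testis form Cox6b2 had the highest log2 fold change of complex IV in double KO livers. It read 5.98, 6.79 and 5.68 in control, 5.95, 5.80 and 5.65 in SMRT KO and 6.67, 5.93 and 6.70 in double KO livers. Control replicate 2 and double KO replicates 1 and 3 stood apart from the other 6 mice, and the groups overlapped. Its log2 fold change in double KO against SMRT KO was 0.64 with an interval of -0.0020 to 1.27 (limma adjusted p = 0.479). The lowest of the complex against control was the muscle form Cox8b, at -0.36, below the dim limit. Cox7c, a small subunit of all tissues, spread over 6.75 to 8.02 among the double KO livers alone (log2 fold change against control -0.22, standard error 0.305, adjusted p = 0.867).

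Complex V couples proton flow to ATP synthesis, through a catalytic F1 head, a rotating ring of c subunits and a membrane base. Its 18 genes had a median of 0.0582 in double KO against control (16 above 0), 0.0768 against SMRT KO (14 above 0) and 0.00363 in SMRT KO against control (9 above 0). Atp5a1, the alpha subunit of the F1 head, read 12.20, 12.20 and 12.22 in control, 12.16, 12.20 and 12.21 in SMRT KO and 12.32, 12.33 and 12.37 in double KO livers. The double KO values were above the other 6, with a log2 fold change of 0.13 against control (standard error 0.0549, 9.63% higher, limma adjusted p = 0.423). Atp5b, the catalytic beta subunit, had 0.0576 (adjusted p = 0.845) and overlapped between groups. Over the 5 F1 genes the median was 0.10, with Atp5e, the epsilon subunit, at -0.0374.

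The genes Atp5g1, Atp5g2 and Atp5g3 encode the same mature c subunit, and they lay at 0.0173, 0.14 and 0.0327 in double KO against control (limma adjusted p from 0.554 to 0.985). Atp5g1 had the highest log2 fold change of the complex in SMRT KO against control (0.24, adjusted p = 0.906). Of the membrane subunits that hold ATP synthase dimers together, Atp5k (subunit e) read 9.88, 9.54 and 9.55 in control, 9.74, 9.24 and 9.85 in SMRT KO and 10.03, 10.03 and 9.88 in double KO livers. The log2 fold change of Atp5k against control, 0.32, was the highest of the complex, with an interval of -0.0302 to 0.67 (adjusted p = 0.512). Atp5l (subunit g) read 8.44, 8.27 and 8.32 in control, 7.92, 7.93 and 8.33 in SMRT KO and 8.41, 8.33 and 8.33 in double KO livers. As for Ndufb8 and Uqcrfs1, SMRT KO replicates 1 and 2 were lowest and replicate 3 was not. Its log2 fold change in SMRT KO against control was -0.28 (adjusted p = 0.826), and in double KO against SMRT KO 0.30 (0.362), or 0.43 without SMRT KO replicate 3, where it passed (0.045). The lowest log2 fold change of the complex was that of the dim pseudogene Atp5c1-ps (-0.32 against control).

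Genes that work beside the chain were read from lists. For the counts that follow, limma called 0.843% of all genes in double KO against control and 1.19% against SMRT KO. At an unadjusted p under 0.05 the shares of all genes were 10.8% and 10.5%. The 6 measured chain genes that the name pattern misses (Cox4i1, Cox4i2, Cyc1, Cycs, Ndufab1 and Atpif1) were all above 0 in double KO against control (median 0.15), led by Cyc1, cytochrome c1 of complex III (0.20, limma adjusted p = 0.34). Of 13 tricarboxylic acid cycle genes, 0 were called by limma in double KO against control (11 above 0, median 0.17, 7 at an unadjusted p under 0.05) and 1 rose against SMRT KO, Cs, citrate synthase, with a log2 fold change of 0.47 (adjusted p = 0.03). The call of Cs was lost without any 1 of the double KO mice, without SMRT KO replicate 1 or 3 and in the 2-group fit, with adjusted p up to 0.132, and over all alternatives 0 to 2 genes of the list were called. Dlst, a subunit of 2-oxoglutarate dehydrogenase, had 0.22 and 0.27 against control and SMRT KO (adjusted p = 0.165 and 0.0676).

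Other genes bring electrons to ubiquinone from outside complexes I and II. Gpd2, the mitochondrial glycerol phosphate dehydrogenase, read 8.30, 8.59 and 8.58 in control, 8.49, 8.38 and 7.87 in SMRT KO and 9.43, 9.28 and 9.41 in double KO livers. All its double KO values were above the other 6. It rose in double KO against control (log2 fold change 0.88, standard error 0.152, limma adjusted p = 0.0346) and against SMRT KO (1.12, 0.00875), as 1 of 7 measured genes in each. The call against control was lost without any 1 of the control or double KO mice, without SMRT KO replicate 2 and with the replicate block (adjusted p up to 0.133), and the call against SMRT KO held in 16 of 16 alternatives. Etfdh, which brings in electrons from fatty acid oxidation, had 0.19 and 0.30 (adjusted p = 0.555 and 0.278).

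Of 42 assembly factors, limma called 0 in either comparison with control. At an unadjusted p under 0.05 there were 2 in SMRT KO and 4 in double KO livers. These are 4.76% and 9.52% of the list, beside 6.0% and 10.8% of all genes. In double KO against SMRT KO limma called 3, beside 1.19% of all genes, and the median over the list was 0.0750. Cox10, which makes the heme of complex IV, rose (log2 fold change 0.40, limma adjusted p = 0.0378). Lyrm7, which matures the Rieske protein of complex III, fell (-1.11, adjusted p = 0.0366), and so did Coa3, a complex IV factor (-0.41, adjusted p = 0.0473). Lyrm7 read 4.67, 4.76 and 5.33 in control, 5.74, 6.09 and 6.06 in SMRT KO and 4.64, 4.68 and 5.23 in double KO livers, so its SMRT KO livers stood apart, and its mean lay below the dim limit. Cox10 and Coa3 were each called in 5 of 16 alternatives and Lyrm7 in 8 of 15. With any 1 of the 9 mice left out, 0 or 1 of the 42 was called, with the replicate block 1 and in the 2-group fit 0.

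Of 15 regulators of mitochondrial biogenesis, 0 were called by limma in any comparison. At an unadjusted p under 0.05 there were 0, 2 and 2, beside 6.0%, 10.8% and 10.5% of all genes. In double KO livers, 11 of the 15 were above 0 against control (median 0.0200) and 12 against SMRT KO (median 0.0863). The 2 against control, Ppargc1a and Thrb, were both lower. Of the 2 against SMRT KO, Ppargc1a was lower and Tfb2m higher. Ppargc1a, the coactivator that promotes expression of chain genes, read 8.91, 8.39 and 8.77 in control, 8.97, 8.21 and 9.25 in SMRT KO and 7.61, 7.94 and 7.68 in double KO livers. The double KO values lay below the other 6, opposite to the side on which most subunit genes lay, with a log2 fold change of -0.94 against control (standard error 0.244, limma adjusted p = 0.159) and -1.07 against SMRT KO (0.0889). Of 71 mitochondrial ribosomal protein genes, 0 were called by limma in any comparison (0, 4 and 6 at an unadjusted p under 0.05), and 55 were above 0 in double KO against control (median 0.0583). The median over the subunit genes was 0.0996 in that comparison, and the difference between the 2 lists was not tested.

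**Figure D4:**
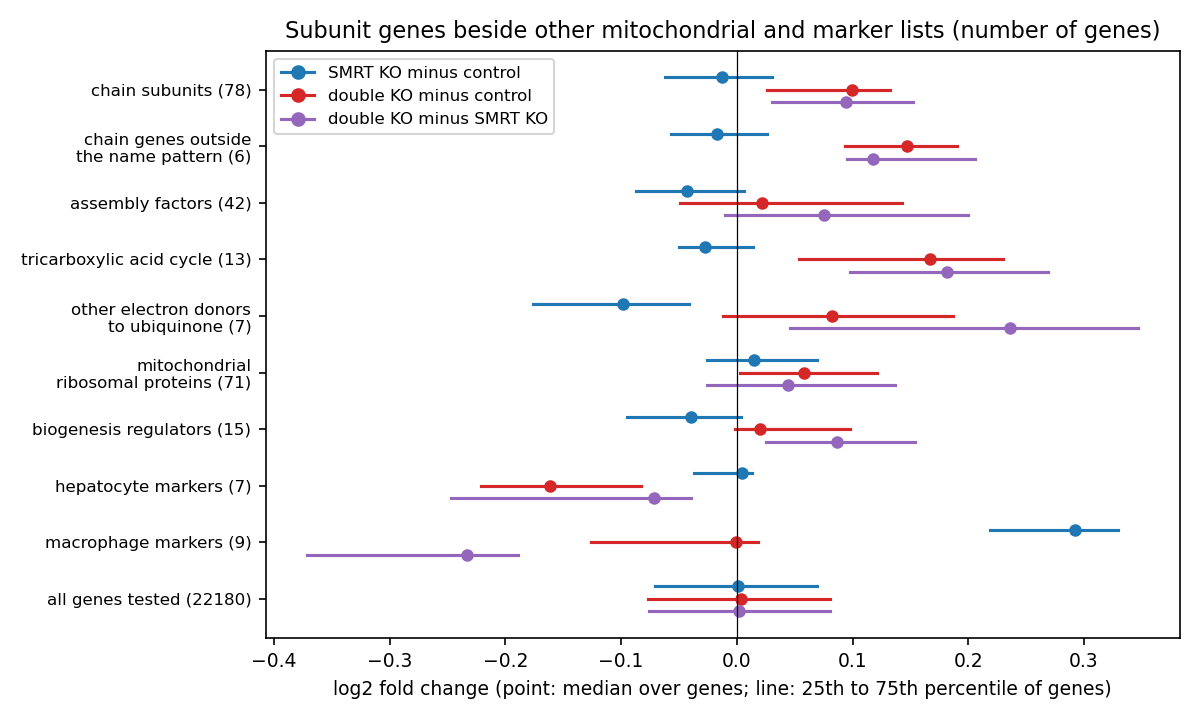
Median (points) and 25th to 75th percentile (lines) of log2 fold changes over the genes of each list, for the 3 comparisons. The number of measured genes is in brackets. Subunit genes and tricarboxylic acid cycle genes have medians of 0.0996 and 0.17 in double KO against control, and all genes tested 0.00359.

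Markers of cell types were also read by group, and 0 of them were called by limma in any comparison. At an unadjusted p under 0.05 the shares of all genes were 6.0% in SMRT KO against control and 10.8% in double KO against control. In double KO against SMRT KO the share was 10.5%. Of 7 hepatocyte markers, all above the dim limit, 6 were below 0 in double KO against control (median -0.16, 0 called by limma, 3 at an unadjusted p under 0.05), and their summed linear level was 58408 to 60061 in control, 57580 to 60769 in SMRT KO and 52787 to 55891 in double KO livers. Of 9 macrophage markers, 9 were above 0 in SMRT KO against control (median 0.29, 0 called by limma, 5 at an unadjusted p under 0.05) and 9 below 0 in double KO against SMRT KO (median -0.23, 0 called by limma, 4 at an unadjusted p under 0.05). Their summed level was 3843 to 4567 in control, 4662 to 5471 in SMRT KO and 3865 to 4595 in double KO livers, and the lowest of them, Marco, had a mean of 6.45. Of 5 brown and white adipocyte markers, 5 were below 0 in double KO against control (median -0.16) and 5 in SMRT KO against control (median -0.11). In each comparison limma called 0, and 1 was at an unadjusted p under 0.05. Their summed level was 471 to 692 in control, 348 to 418 in SMRT KO and 360 to 449 in double KO livers. Of these 5 markers, 3 lay below the dim limit. Of 6 lymphocyte markers, 6 were above 0 in SMRT KO against control (median 0.195, 0 called by limma, 1 at an unadjusted p under 0.05), with a summed level of 560 to 625 in control, 634 to 794 in SMRT KO and 559 to 666 in double KO livers, and 2 of them lay below the dim limit. The summed level of 6 endothelial markers was 4577 to 5367 in control, 5413 to 5783 in SMRT KO and 4690 to 5778 in double KO livers. That of 4 cholangiocyte markers was 299 to 351 in control, 342 to 361 in SMRT KO and 358 to 394 in double KO livers, where all 3 lay above the controls. The summed levels of stellate cell, neutrophil, erythroid and striated muscle markers overlapped between all groups. The part of these cell types in the subunit values was not tested.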

How the data were processed

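The authors deposited log2 expression values, which per the submitters' processing notes came from RMA (no version is given in the sources used here). RMA subtracts background, quantile-normalizes the arrays together and summarises each probe set, so a shift common to most genes is removed. The table held 41345 probe sets on 9 arrays (medians 5.96 to 6.02). Arrays correlated at 0.987 to 0.992 within groups and 0.983 to 0.989 between them, and 0 columns belonged to other samples. The platform annotation gave 1 symbol to 23521 probe sets and several to 1814, and 16010 were unlisted. Arrays have no read depth, so the number of arrays limits precision.

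Groups came from the sample titles. All 22180 genes were fitted in limma 3.58.1 (R 4.3.3) with lmFit and eBayes over 9 arrays without a block (6 residual and 3.36 prior degrees of freedom, two-sided). P-values were adjusted by Benjamini-Hochberg over all genes, with a threshold of 0.05, and intervals are unadjusted at 95%. With 3 mice against 3, an exact permutation test cannot go below 0.1 and was not used. The steps were tested on simulated data. Members, lists and named genes (per complex the highest and lowest fold changes, isoform pairs, catalytic subunits, and called or lowest-p list genes) were chosen with earlier results of these data known. Ndufa10, Cox7c, Uqcrh and the genes counted by overlap were named after their values were seen. Whole-transcript probes can pick up near-identical pseudogenes, which many chain subunits have. Of the probe sets with several symbols, 10 included a chain gene and were left out. Alternatives were another summary per gene, a filter on dim genes, cyclic loess, median centring, 2-group fits, trended robust variances, a replicate block, leaving out each mouse, and other member sets. Promoter sequences are from RefSeq (GRCm38.p6).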

Additional observations from a re-analysis of the deposited data

How the results depend on the processing

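The count of called subunit genes stayed at 0 in SMRT KO against control and in double KO against control under 18 alternatives each. In double KO against SMRT KO it was 0 in 17 of 18 and ranged from 0 to 3 when 1 mouse was left out, with 3 without SMRT KO replicate 3 (Uqcrfs1, Ndufb8 and Atp5l). The cause was not tested, here and for the values that follow. The median log2 fold change of the subunit genes in SMRT KO against control ranged from -0.0260 to 0.0155 when 1 mouse was left out and was -0.0388 with median-centred arrays. In double KO against control it ranged from 0.0688 (without control replicate 2) to 0.0996 when 1 mouse was left out, and in double KO against SMRT KO from 0.0887 to 0.108 over 19 alternatives. With the replicate number as a block, the medians were -0.0128, 0.0996 and 0.0945 and 0 subunit genes were called in each comparison. That block gave 152 called genes over all genes in double KO against control, where 187 were called without it. Same-numbered mice correlated at -0.0845 to 0.117 in their deviations from group means, and differently numbered mice at -0.154 to 0.165. These values showed no sign of pairing by number, and pairing was not otherwise tested. With a single mouse left out, the number of the 78 genes above 0 in double KO against control was 63 to 68. The alternative that left out dim members and the one without pseudogenes, the second chosen after seeing the data, gave medians of 0.10 each in that comparison. Without SMRT KO replicate 1, the medians of complexes I and IV in SMRT KO against control were 0.0151 and 0.0110, above 0. That of complex IV was also above 0 without control replicate 2. Where 1 mouse was left out in double KO against SMRT KO, the complex IV median ranged from 0.0571 to 0.14 and the complex III median from 0.0929 to 0.17. With 3 mice a group, the median half-width of the 95% interval of a subunit gene's log2 fold change was 0.164.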

Other observations

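For 9 subunit genes the array held a second probe set with a single symbol, which was not used above. In double KO against control, 7 of the 9 second probe sets had the same sign as the first, and in double KO against SMRT KO 8 of 9. In SMRT KO against control it was 2 of 9. The second probe set of Atp5d, the delta subunit of the F1 head, differed by 0.41 in double KO against control (mean level 9.53), where the first differed by 0.10 (10.78). That of Cox5b differed by 0.42 (mean level 5.80, below the dim limit) where the first differed by 0.16. The second probe sets of Cox7b and Atp5e had the sign opposite to the first, at -0.18 against 0.10 and 0.12 against -0.0374. These values are differences of group means, with no test.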
